A study of Mus musculus with 6 samples.

Results

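Natural killer (NK) cells were sought among single cells of regenerating quadriceps muscle by the transcripts they carry. A barcode was counted as an NK cell when it had at least 300 detected genes, at most 15% mitochondrial unique molecular identifiers (UMIs), and a UMI of at least 2 of Ncr1, Klrb1c, Gzma, Nkg7, Klrd1 and Prf1. Members were thus selected on the measured UMIs of these genes. Each also had to hold no UMI of the T-cell genes Cd3e, Cd3d and Cd3g, the macrophage genes Csf1r and Adgre1, the neutrophil gene Csf3r or the fibroblast gene Pdgfra. The rule found 179 barcodes among 53717 that passed the gene and mitochondrial limits. All 6 mice were Cdh5-CreERT2:R26R-tdTomato animals, in which a tamoxifen-dependent Cre under an endothelial promoter can switch on a red reporter, and all received cardiotoxin into the quadriceps. In 3 mice (CLL) intravenous liposomes carried clodronate, given to deplete part of the circulating monocytes, and in 3 control mice (SHAM) they carried PBS. The liposomes were injected 1 day before and 2 days after the injury, and muscles were collected 5 days after it. Each library came from its own mouse.

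NK cells are innate lymphocytes that kill stressed or infected cells without an antigen receptor made by gene rearrangement. They weigh signals from activating receptors such as NKp46 (Ncr1) and NKG2D (Klrk1) against inhibitory receptors that read MHC class I, and release perforin and granzymes from granules into their targets. They also secrete interferon gamma and the chemokines of the Ccl3, Ccl4, Ccl5 and Xcl1 genes, which act on macrophages, T cells and dendritic cells. Injured muscle draws in neutrophils, monocytes and lymphocytes, and NK cells are a small share of them.

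The 200 bases before the annotated start of 4 NK genes are printed because their transcripts mark the cells described here. Ncr1 and Gzma belong to the rule, Gzmb encodes a second granzyme outside it, and Xcl1 had the highest mean log2 ratio of members over other barcodes among genes outside the rule. The sequences are from RefSeq (GRCm38.p6), read 5′ to 3′ on each gene's strand, and for a gene with several starts the first one listed was taken. The windows lie at chr7:4337515-4337714 (plus strand), chr13:113100982-113101181 (minus strand), chr14:56262335-56262534 (minus strand) and chr1:164935523-164935722 (minus strand). Capitals mark every match, on either strand, to AGGTGT, a core bound by T-box factors such as Eomes and Tbx21, or to TGTGGT, a core bound by RUNX factors. The 2 motifs do not overlap in these windows.
Ncr1: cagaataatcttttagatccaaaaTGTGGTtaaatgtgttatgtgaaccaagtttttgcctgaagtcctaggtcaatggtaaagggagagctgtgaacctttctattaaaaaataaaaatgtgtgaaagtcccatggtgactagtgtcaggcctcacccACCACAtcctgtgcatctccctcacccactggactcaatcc
Gzma: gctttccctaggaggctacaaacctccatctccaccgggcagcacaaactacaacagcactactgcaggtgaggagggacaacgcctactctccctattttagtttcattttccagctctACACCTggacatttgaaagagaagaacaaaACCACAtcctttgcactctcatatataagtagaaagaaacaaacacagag
Gzmb: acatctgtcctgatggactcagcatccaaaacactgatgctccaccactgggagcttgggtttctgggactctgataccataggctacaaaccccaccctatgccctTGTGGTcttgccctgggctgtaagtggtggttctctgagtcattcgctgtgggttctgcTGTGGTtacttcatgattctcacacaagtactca
Xcl1: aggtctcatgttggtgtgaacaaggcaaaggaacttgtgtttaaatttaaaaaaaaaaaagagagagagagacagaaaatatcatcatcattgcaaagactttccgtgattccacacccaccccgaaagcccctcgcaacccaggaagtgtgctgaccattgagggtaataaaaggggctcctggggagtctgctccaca
Ncr1 held 2 RUNX matches and no T-box match, Gzma held 1 of each, Gzmb held 2 RUNX matches, and Xcl1 held neither. Of all 32851 windows of this length, 9.32% held the T-box core and 11.2% the RUNX core. Of 40 genes made up of the rule markers, an NK identity list and a cytotoxic granule list, 31 had at least 1 window. The T-box core was found for 6 of them and the RUNX core for 12. These are counts of genes, which may have more than 1 window, so they cannot be set against the shares of windows. These matches describe the letters of the windows and say nothing of binding.

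Gzma, a granule tryptase, and Nkg7, a granule membrane protein, chose most of the members. Nkg7 was detected in 158 of the 179, Gzma in 146 and Klrd1, the CD94 subunit of the NKG2 receptors, in 133. Prf1, the pore-forming perforin, was found in 75, Ncr1 in 56 and Klrb1c, the NK1.1 antigen, in 48. Since the rule used these genes, the counts are a description and carry no test. Gzma stood at 1901, 100.6 and 2248 CPM (UMIs per 1000000 summed UMIs of the members) in CLL replicates 1 to 3, and at 2560, 2880 and 1955 CPM in SHAM replicates 1 to 3. The low value is that of CLL replicate 2, whose 4 members included 1 barcode with 83.2% of their UMIs.

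The label was checked with genes the rule had not used. All 15 genes of an NK identity list were detected, and 10 of them were each found in at least 25% of the members. Xcl1, a chemokine ligand of dendritic cells, was found in 138 members (77.1%), against 6.43% of 171 T cells and 0.603% of barcodes with Pdgfra. Klre1, an NK lectin receptor, was found in 94 members (52.5%), 1.17% of T cells and 0.330% of Pdgfra barcodes. Median depths were 2517 UMIs for members, 4032 for T cells and 8599 for Pdgfra barcodes, so the members were the shallowest. T cells here are barcodes with at least 2 of the 3 Cd3 genes and no UMI of Ncr1, Klrb1c, Csf1r, Adgre1, Csf3r or Pdgfra. After every barcode was thinned to 1000 UMIs, which left out 10 members and 14 T cells, Xcl1 was found in 59.2% of members and 0.637% of T cells, and Klre1 in 20.7% and 0.637%.

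Irf8, a transcription factor of myeloid and NK cells, was detected in 74.9% of members, 7.60% of T cells and 14.2% of Pdgfra barcodes. Eomes, which specifies NK cells, was found in 34.6%, 1.75% and 0.123%. Il2rb, a receptor chain for interleukins 2 and 15, did not separate the lymphocytes, with 76.0% of members and 70.2% of T cells. The adaptors Tyrobp and Fcer1g reached 82.1% and 91.1% of members, but also 34.4% and 31.4% of Pdgfra barcodes. Ctsw and Txk were each detected in about as many members as Klre1 but in 25.1% and 17.0% of T cells. At least 3 of the 15 identity genes were found in 167 members and none of them in 0 members. This count was not made in other barcodes. The list summed to 1971 to 12901 CPM in members, 804 to 914 CPM in T cells and 405 to 2331 CPM in other kept barcodes. SHAM replicate 1, with 137 of the 179 members, weighed most in every pooled share.

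**Figure D1:**
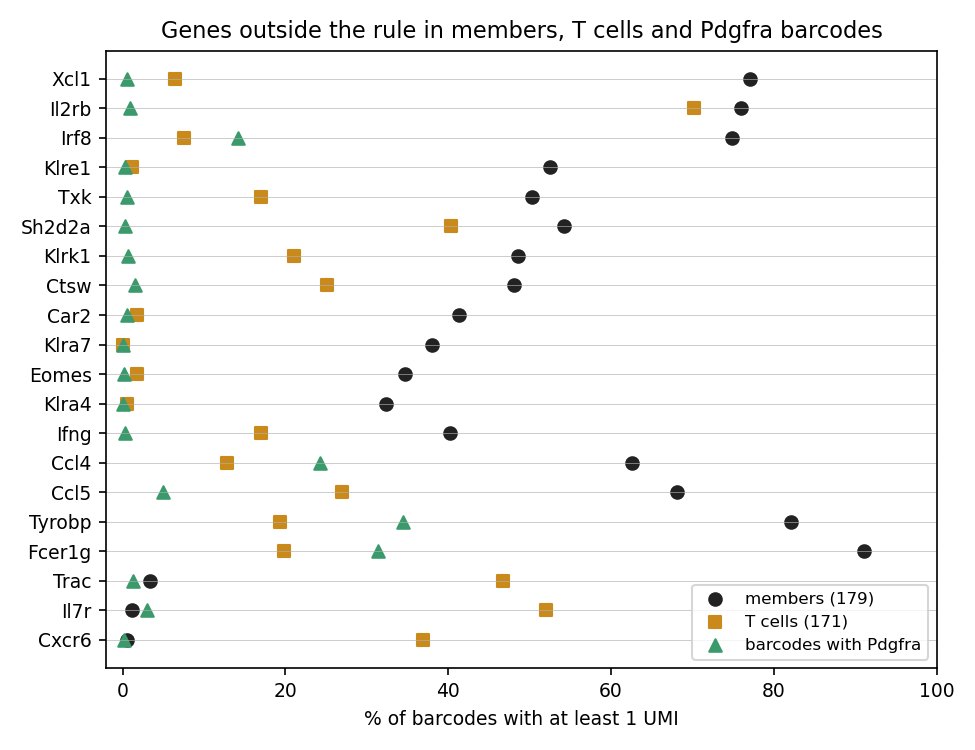
Share of barcodes with at least 1 UMI of each gene (horizontal axis, percent) among members (circles), T cells (squares) and barcodes with Pdgfra (triangles), pooled over libraries at the deposited depth. Xcl1, Klre1, Eomes, Klra4 and Klra7 lie between 32.4% and 77.1% in members and at 6.43% or less in the other classes, while Trac, Il7r and Cxcr6 are high only among the T cells.

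The gate was not equally secure for every member. Exactly 2 rule markers were detected in 46 members, exactly 3 in 49 and 4 or more in 84, at median depths of 1947, 2004 and 4006.5 UMIs. Il2rb was found in 56.5%, 75.5% and 86.9% of these sets, Klre1 in 26.1%, 55.1% and 65.5%, and Irf8 in 43.5%, 77.6% and 90.5%. Just below the threshold, 744 barcodes with 1 rule marker and no excluded gene held Xcl1 in 1.88%, Il2rb in 2.02% and Klre1 in 2.69%. At 1000 UMIs each, Xcl1 was found in 0.732% of the barcodes with 1 marker and in 51.2%, 54.5% and 69.5% of those with 2, 3 and 4 or more. The macrophage gene C1qa was found in 30.4% of members with exactly 2 markers and 15.5% of those with 4 or more.

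The excluded genes removed nearly as many barcodes as the gate kept. A further 166 barcodes had 2 or more rule markers and at least 1 excluded gene, at a median of 6542 UMIs. Csf1r was present in 94 of them, Adgre1 in 73, Cd3g in 39, Cd3d in 38, Pdgfra in 35, Cd3e in 24 and Csf3r in 20. In 45 of the 166 a single UMI of a single excluded gene was the reason. Xcl1 was found in 38.6% of these 166 and Il2rb in 57.2%, beside C1qa in 66.3%. What kind of cell they hold was not tested.

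**Figure D2:**
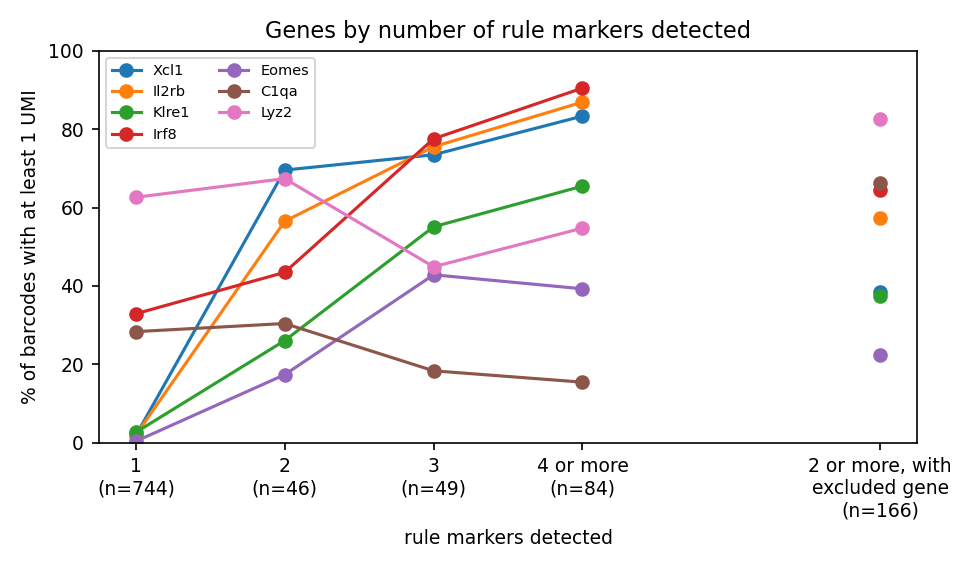
Share of barcodes with at least 1 UMI of 5 NK-associated genes and of the macrophage genes C1qa and Lyz2 (vertical axis, percent), by the number of rule markers detected without an excluded gene and, at the right, for barcodes removed by an excluded gene. Xcl1, Il2rb and Klre1 lie between 1.88% and 2.69% at 1 marker and between 26.1% and 69.6% at exactly 2.

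Lectin receptors of the NK gene complex on chromosome 6 were examined next. RefSeq (GRCm38.p6) lists 25 protein-coding Klr genes between bases 128609227 and 131247716, and 24 are in the files. Klrb1c and Klrd1 (chr6:129588092-129598775) belong to the rule, and T cells were required to lack Klrb1c, so both were set aside. Of the 22 others, 18 had a UMI in members and 10 in T cells. Klre1, at chr6:129559365-129585828, was found in 94 members and Klrk1 at chr6:129610323-129623903 in 87, against 1.17% and 21.1% of T cells. Klrb1b was found in 29 members and Klri2 in 26, and neither in any T cell.

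The Ly49 receptors, which bind MHC class I, lie at the far end of the complex. Klra7, an inhibitory member at chr6:130218605-130233322, was found in 68 members, and Klra4, an activating one at chr6:130043730-130067301, in 58. Klra9 was found in 31, Klra8 (the activating Ly49H) in 28, Klra1 in 26 and Klra3 in 12, while Klra10 was not detected. A UMI of at least 1 of 8 listed Ly49 genes was found in 121 members, and of at least 2 in 69. Klrc1 and Klrc2, the NKG2A and NKG2C partners of CD94, were each found in 27 members, and either in 42. Both families were found together in 26 members, Ly49 alone in 95, Klrc1 or Klrc2 alone in 16 and neither in 42. Median depth was 6202.5 UMIs where both were found and 2086 where neither was, so missing UMIs cannot be read as missing receptors. The Klra genes are near-identical copies, and how reads were shared among them is uncertain.

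Cytotoxic and secreted effectors formed the second large group. Of 20 granule genes, all were detected and 8 were found in at least 25% of members. Gzmb was found in 79 members, against 12.9% of T cells and 0.217% of Pdgfra barcodes. Its level was 131, 20.1 and 99.2 CPM in the CLL libraries and 260, 500.2 and 782 CPM in the SHAM libraries, so the groups did not overlap. These are 13, 1 and 3 UMIs in CLL and 100, 99 and 4 in SHAM, the last from 1 member. Of the 943 genes tested in all 6 libraries, 6.15% had every SHAM library above every CLL library and 3.5% the reverse. Gzma and Gzmb were found together in 72 members and Gzma without Gzmb in 74, the latter at a median of only 1819.5 UMIs. Gzmc was found in 11 members and Gzmk in 2. Serpinb9, an inhibitor that shields a killer cell from its own granzyme B, was found in 92. Fasl and Tnfsf10, death ligands of the cell surface, were found in 19 and 8.

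Chemokines were examined next, without a ranking of all genes by level. Xcl1 reached 1771, 644 and 1223 CPM in CLL and 1132, 3294 and 2150 CPM in SHAM. Ccl5, a chemokine for T cells and monocytes, was at 1972, 543 and 2281 CPM in CLL and 1519, 4375 and 391 CPM in SHAM. Both genes overlapped between the groups, and 1 barcode held 70.4% of the Ccl5 UMIs of CLL replicate 1. Ifng was at 282, 282 and 165 CPM in CLL and 190, 561 and 586 CPM in SHAM, and was found in 72 members, 62 of which also held Xcl1. In T cells Xcl1 stood between 4.35 and 44.2 CPM in the 5 libraries that had any. Csf2 had a UMI in 1 member and Tnf in 25.

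Ccl3 and Ccl4, which attract monocytes, were high in SHAM replicates 1 and 2. Ccl4 stood at 131, 442 and 264 CPM in CLL and at 1311 and 1233 CPM in SHAM replicates 1 and 2, with no UMI in the 1 member of SHAM replicate 3. Ccl3 stood at 60.4, 0 and 198 CPM in CLL and 307, 374 and 195 CPM in SHAM. Both genes thus overlapped between the groups. SHAM replicates 1 and 2 were above every CLL library, but this view sets SHAM replicate 3 aside after its values were seen. How many of all genes separate in that way was not counted. Ccl4 was also found in 24.3% of Pdgfra barcodes and Ccl3 in 14.04%, against 62.6% and 40.2% of members. The annotated spans of the 2 genes overlap on chromosome 11 (83647843 to 83649378 and 83648624 to 83664683), so reads in the overlap are uncertain.

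**Figure D3:**
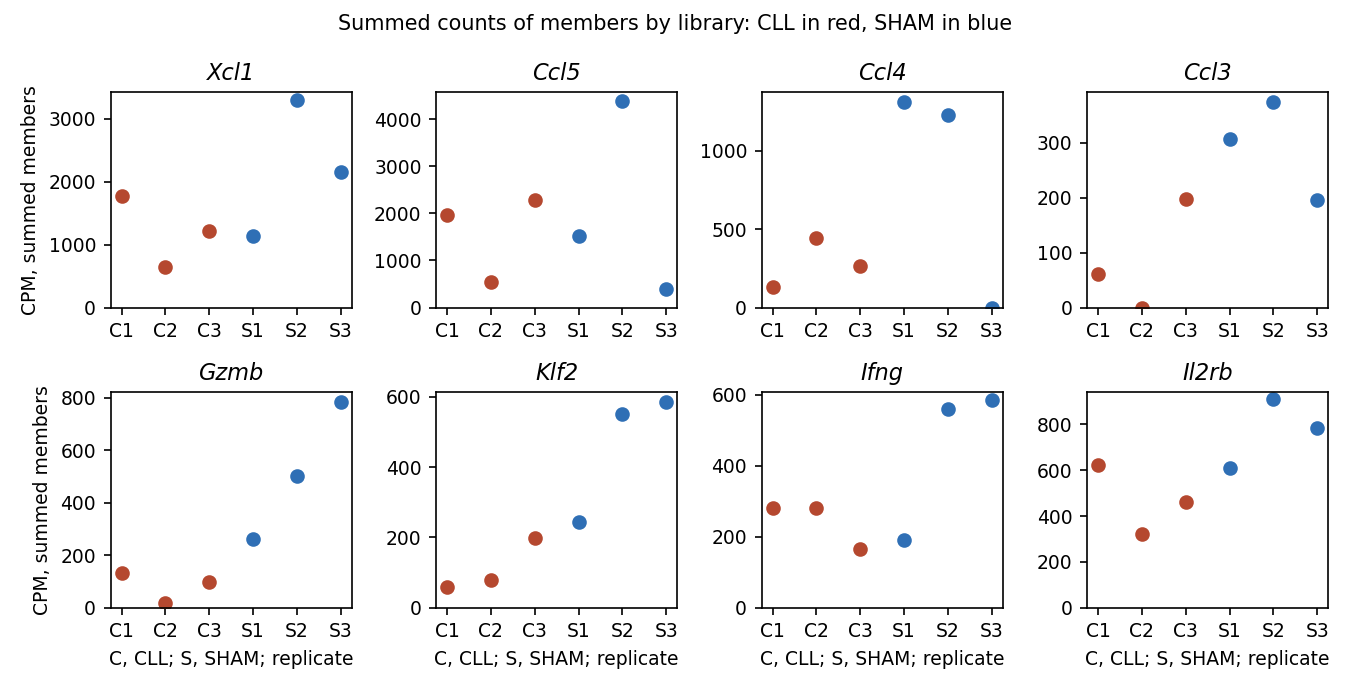
CPM of the members' summed UMIs (vertical axes, linear from 0) for 8 genes in CLL replicates 1 to 3 (red) and SHAM replicates 1 to 3 (blue); each point is 1 library of 13, 4, 6, 137, 18 and 1 members. Gzmb and Klf2 do not overlap between groups, as 6.15% of 943 genes did not in the same direction, and the other genes overlap.

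Transcripts of maturation and residence were uneven. Itgam, an integrin of mature NK cells, was found in 15 members, Klrg1 in 16, Cx3cr1 in 4 and S1pr5, an exit receptor of mature cells, in 0. With no UMI among 179 members, up to 1.68% of members could hold an S1pr5 UMI, for counting error only. Cd27, carried by less mature cells, was found in 25 members, 4 of which also held Itgam.

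Of 12 genes of type 1 innate lymphoid and tissue-resident cells, 11 were detected and 7 were found in at least 5% of members. Rgs1, a regulator of chemokine signalling, was found in 62.6% of members and 72.5% of T cells, and Ltb, encoding lymphotoxin beta, in 17.3% and 60.2%. Cxcr6 was found in 1 member and 36.8% of T cells, and Il7r in 2 members and 52.0% of T cells. Zfp683 had no UMI in members. Itga1, an integrin of resident cells, was found in 29 members but also in 31.1% of Pdgfra barcodes. Eomes or Tbx21, the T-box factors of NK cells, was found in 72 members and both in 13. Klf2, a factor that supports circulation, stood at 60.4, 80.5 and 198 CPM in CLL and 245, 551 and 586 CPM in SHAM, without overlap. These values came from 6, 4 and 6 UMIs in CLL and 94, 109 and 3 in SHAM. Of the 943 genes tested in all 6 libraries, 6.15% had every SHAM library above every CLL library. Klf2 was found in 39.1% of members but also in 63.8% of Pdgfra barcodes. Vegfa, a vessel growth factor, was found in 65 members and 4.68% of T cells, but in 25.1% of Pdgfra barcodes.

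Dividing members were found mainly in SHAM replicate 1. A member was called cycling when it held UMIs of at least 3 of 14 genes of DNA replication and mitosis. This was so in 0 of 13, 1 of 4 and 0 of 6 members in CLL and in 29 of 137, 2 of 18 and 0 of 1 in SHAM. The share in SHAM replicate 1 was 21.2% (95% Clopper-Pearson interval 14.7 to 29.0%), against 5.08% of its T cells (1.06 to 14.1%), at median depths of 2004 and 1480 UMIs. After thinning to 1000 UMIs it was 15.0% of 127 members and 2.13% of 47 T cells, and 0 in the members of every other library. A count of 0 among 13 members allows a share of up to 23.1%, so a difference between CLL replicate 1 and SHAM replicate 1 cannot be shown with so few members. Intervals and limits of this kind cover counting error only.

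NK transcripts were set side by side in cycling and other members. In SHAM replicate 1, Gzmb stood at 297 CPM in the 29 cycling and 246 CPM in the 108 other members, and Xcl1 at 1180 and 1113 CPM. Ccl5 stood at 288 CPM in cycling and 1999 CPM in other members. In SHAM replicate 2 the 2 cycling members were lower than the 16 others in each of these genes. They stood at 148 against 633 CPM of Gzmb, 1921 against 3811 of Xcl1 and 55.4 against 6001 of Ccl5. Their median was 27064.5 UMIs, against 9187.5 in the others, and at 1000 UMIs no member of this library was cycling. The largest member of SHAM replicate 2, with 30035 UMIs, held 77.2% of the Col1a1 UMIs of its members. The part of RNA from other cells was not tested, and the CPM sums carry no test.

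**Figure D4:**
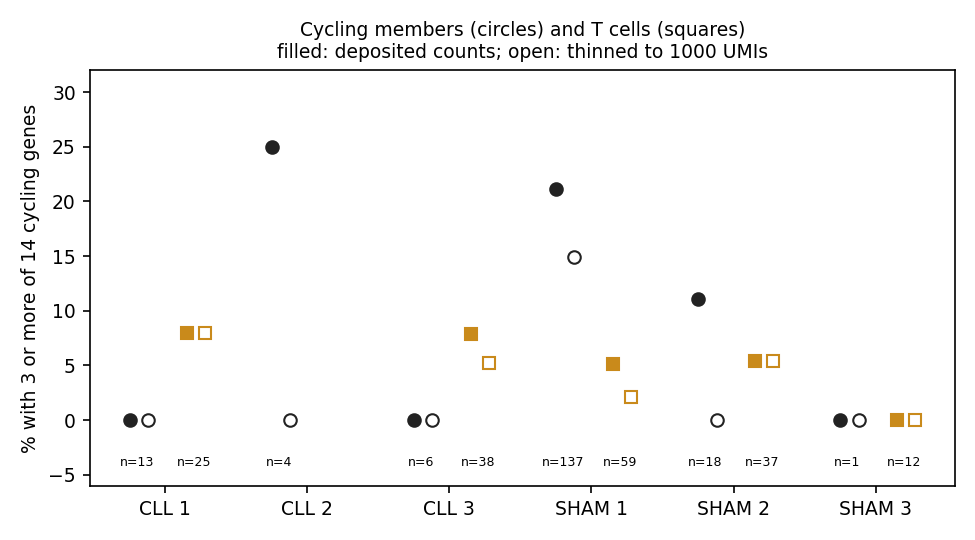
Share of members (circles) and T cells (squares) with at least 3 of 14 cycling genes (vertical axis, percent) in each library, at the deposited depth (filled) and after thinning to 1000 UMIs (open), with the number of cells under each pair. The highest filled point is 1 of 4 members of CLL replicate 2, and those of SHAM replicate 1 are 21.2% of members and 5.08% of T cells.

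Markers of other cells were counted for the whole of each list. Of 12 T-cell genes 8 had a UMI, with Cd8a, Cd8b1, Cd6 and Foxp3 at 0. Trac was found in 6 members against 46.8% of T cells, while Trbc1 or Trbc2 was found in 96 members. These 96 included all 18 members of SHAM replicate 2. Of 12 neutrophil genes 8 had a UMI, Cxcr2, Slpi, Lcn2 and Camp being at 0, and the list summed to between 0 and 397 CPM. All 17 macrophage and monocyte genes had a UMI, summing to 624, 101 and 1355 CPM in CLL and 5836, 707 and 2150 CPM in SHAM, beside 5005 to 27629 CPM in the other kept barcodes of the same libraries. The fibroblast and tenocyte list summed to 3909 to 42338 CPM in members and 27131 to 48874 CPM in other barcodes. Of 13 dendritic-cell genes 11 had a UMI, summing to 6489, 80.5 and 16923 CPM in CLL and 2620, 131 and 391 CPM in SHAM. In other kept barcodes they summed to 1827, 518 and 2221 CPM in CLL and 5728, 7721 and 5073 CPM in SHAM. Members of CLL replicates 1 and 3 thus stood above the other barcodes in this list, and those of the remaining libraries below. Tomato, the reporter, was found in 76 members and 44.4% of Pdgfra barcodes, and Cdh5 in 15 members, all of SHAM replicate 1. The part of this RNA in the results was not tested.

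A few heavy barcodes set much of the CLL signal. In CLL replicate 1, 1 barcode held 605 of the 610 UMIs of the MHC class II genes H2-Aa, H2-Ab1, H2-Eb1 and Cd74, and also 18 UMIs of Ccr7, the homing receptor of mature dendritic cells. That barcode carried 24 UMIs of Gzma and 17 of Xcl1. In all, 7 members held 100 or more class II UMIs, of which 1 was in CLL replicate 1, 2 in CLL replicate 3 and 4 in SHAM replicate 1. The 2 in CLL replicate 3 held no UMI of Gzma, Xcl1, Klre1 or Irf8. One passed the rule on 5 UMIs of Klrd1 and 1 of Klrb1c, the other on 1 UMI each of Klrd1 and Nkg7. The 4 in SHAM replicate 1 held 7 to 22 UMIs of Gzma and 1 to 22 of Xcl1. The largest barcode of CLL replicate 1 held 69.6% of its Col1a1 UMIs and that of CLL replicate 2 held 97.7%. Scrublet scores marked 19 members as likely doublets, 17 of them in SHAM replicate 1.

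Whether members were rarer after clodronate liposomes was asked from their share of kept barcodes. Members were 0.354%, 0.0350% and 0.1004% of kept barcodes in CLL replicates 1 to 3, from 13 of 3672, 4 of 11435 and 6 of 5978. In SHAM they were 0.566%, 0.958% and 0.0152%, from 137 of 24188, 18 of 1879 and 1 of 6565. The 95% Clopper-Pearson intervals ran from 0.189 to 0.605%, 0.00953 to 0.0895% and 0.0368 to 0.218% in CLL, and from 0.476 to 0.669%, 0.569 to 1.51% and 3.86e-04 to 0.0848% in SHAM. SHAM replicates 1 and 2 lay above every CLL library and SHAM replicate 3 lay below every one of them. Excluded genes had removed 10, 0 and 2 barcodes with 2 or more rule markers in CLL and 130, 20 and 4 in SHAM. The shares without that exclusion were not computed. The mean was 0.163 ± 0.169% in CLL and 0.513 ± 0.474% in SHAM (SD, n = 3 each), a difference smaller than the spread of the SHAM libraries. A two-sided exact permutation test gave p = 0.4, and p = 0.6 after Benjamini-Hochberg adjustment over 3 comparisons, and with 3 against 3 it cannot go below 0.1.

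Depth differed among libraries, and the shares were recomputed at 1000 UMIs per barcode. They became 0.305%, 0.0356% and 0.0707% in CLL and 0.501%, 1.16% and 0.129% in SHAM. The difference was -0.460 percentage points (exact permutation p = 0.2, adjusted p = 0.6, two-sided, n = 3 each). Thinning also removes UMIs of the excluded genes, so it can let in barcodes that the rule had rejected. SHAM replicate 2 went from 18 to 21 members. SHAM replicate 3 went from 1 to 3 and then no longer lay below all the CLL libraries, but at 500 UMIs it held 0. Its kept barcodes had a median of 885 UMIs, and only 2323 of 6565 reached 1000. Members per T cell were 0.520 and 0.158 in CLL replicates 1 and 3, and 2.32, 0.486 and 0.0833 in SHAM (exact permutation p = 1.0, smallest possible 0.2). CLL replicate 2 had no T cell and gave no ratio. Without SHAM replicate 1 the difference in this ratio changed sign, from -0.625 to 0.0540.

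**Figure D5:**
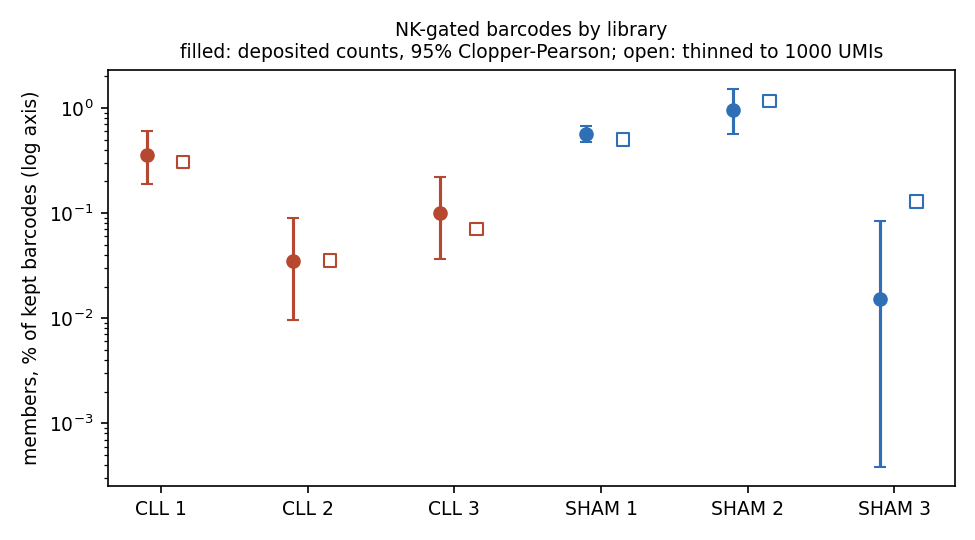
Members as a percentage of kept barcodes (vertical axis, logarithmic) in each library, at the deposited depth with 95% Clopper-Pearson intervals (filled circles) and after thinning to 1000 UMIs (open squares); CLL in red, SHAM in blue. SHAM replicates 1 and 2 are highest and SHAM replicate 3 is lowest at the deposited depth.

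Gene changes within members were tested where a library held at least 10 of them, which left CLL replicate 1 with 13 members against SHAM replicates 1 and 2 with 137 and 18. The single CLL library is assumed to vary like the SHAM libraries. With edgeR's quasi-likelihood test, 0 of 3224 genes passed an adjusted p of 0.05 (0% called), and DESeq2 also called 0. At an unadjusted p under 0.05 there were 131 genes in edgeR (4.06% called), 52 higher (1.61%) and 79 lower (2.45%), and 24 in DESeq2. A fit of all 6 libraries, added after the data were seen, called 0 of 943 genes (0%), with 34 (3.61%) at an unadjusted p under 0.05. In simulated counts of the 3-library design, 65 of the 90 tested genes changed 4 units on the log2 scale were called and 20 of the 95 changed 2 units.

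Of the 9 NK cytokine and chemokine genes tested, 0 passed, and 8 had estimates below 0. Their median log2 fold was -1.17, against -0.08 over all genes. Ccl4 had the smallest p among them, with a log2 fold of CLL over SHAM of -3.17 (SE 0.67, edgeR adjusted p = 0.732). In the 6-library fit it was -1.75 (edgeR adjusted p = 0.979). Without a filter on low counts the estimate for Ccl4 was -3.31, and edgeR called it. The same setting, with 1 CLL library, also called Ccr7 and Cd74, whose UMIs in CLL replicate 1 lay mainly in 1 barcode. Thbs4, a gene of connective tissue, and Apoe, Fabp4 and Rgs5 were called as well. The part of RNA from other cells in these calls was not tested. Ccl3 followed at -2.38 (SE 0.67, edgeR adjusted p = 0.792). For Gzmb the estimate was -1.43 (SE 0.70, edgeR adjusted p = 0.999), and for Klf2 -2.61 (SE 0.83, edgeR adjusted p = 0.863).

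For NK identity genes the 2 fits differed. Of 12 NK identity genes tested 0 passed, 3 estimates were above 0 and 9 below, and their median was -0.21. With all 6 libraries 10 of 10 estimates were below 0, with a median of -0.68, and 0 passed. The median was -0.69 for 6 cytokine and chemokine genes and 0.06 over all genes. The identity list summed to 6388, 1971 and 6677 CPM in CLL and 5185, 10019 and 12901 CPM in SHAM, so the groups overlapped. In CLL replicate 2, 1 barcode held 83.2% of the members' UMIs, and the fibroblast and tenocyte list summed to 42338 CPM. The part of that barcode in these estimates was not tested. Among NK genes, Il2rb stood at -0.18, Klre1 at -0.56, Klrk1 at -0.78, Xcl1 at -0.24, Eomes at -0.13 and Irf8 at 0.00 on the log2 scale, all with an edgeR adjusted p of at least 0.999. Of 13 granule genes tested 6 estimates were above 0 and 7 below, with a median of -0.03. The 12 interferon-response genes tested had a median of -0.96 (-0.72 with the gene at 0 set to its limit) and Isg15 stood at -1.32, and 0 of them passed. Of 16 glycolysis and hypoxia genes 11 estimates were above 0, with a median of 0.35.

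All 15 proliferation genes tested had estimates below 0, and 0 passed, with 9 at an unadjusted p under 0.05 in the lower direction, where 2.45% of all genes stood. With all 6 libraries 3 were tested, 2 of them above 0, with a median of 0.06. The list summed to 1680, 2172 and 4231 CPM in CLL and 5485, 3441 and 1173 CPM in SHAM, so the groups overlapped. CLL replicate 1 held no UMI of 9 of them, and with those set to a limit of 3 counts per library the median was -1.56. Mki67, a mark of dividing cells, had 48 and 13 UMIs in SHAM replicates 1 and 2 and none in CLL replicate 1. With that 0 set to 3 counts, the mean CPM of SHAM replicates 1 and 2 was 3.16 times as high. For Birc5 it was 3.11 times as high in the same sense. Both values treat UMIs as independent, though cycling genes were found together in a part of the members. A count of 0 cycling among 13 members allows up to 23.1%, so neither value is a minimum fold. CLL replicate 3 held 33.1 CPM of both genes in its 6 members, and CLL replicate 2 held 20.1 CPM of Birc5.

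Outside the lists of other cell types, the smallest p in the higher direction belonged to Srpx2, Timp1, Tbc1d4, Thbs4 and Ccdc80, and Ccr7 led the trafficking list, all at an edgeR adjusted p of 0.732. Every Ccr7 and Tbc1d4 UMI of CLL replicate 1 came from the 1 barcode rich in MHC class II, and neither gene was tested once such barcodes were left out. For Srpx2 and Thbs4, genes of connective tissue, 1 barcode held 88.2% and 86.5% of the UMIs of CLL replicate 1. The log2 fold of Thbs4 was 2.42 (SE 0.54) and fell to 0.17 among barcodes of at most 20000 UMIs. Uhrf2 and Igfbp3, lower by estimate, had no UMI in CLL replicate 1. With that 0 set to 3 counts, the mean CPM of SHAM replicates 1 and 2 was 3.23 and 2.72 times as high. These values cover counting error of independent UMIs only.

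Whether members and T cells changed differently was tested as an interaction with the library as a block, in the same 3 libraries, again with 1 CLL library. Of 3813 genes, 18 passed in edgeR at an adjusted p of 0.05 (0.472% called), 11 with a higher and 7 with a lower change in members. Gzma, a gate gene, and 5 markers of other cell types were among them. Ccl5 differed by -1.38 on the log2 scale (SE 0.23), Hmgb2, a chromatin protein of dividing cells, by -2.39 (SE 0.36), S100a4 by -1.80 (SE 0.30) and the ferritin gene Ftl1 by 1.67 (SE 0.24), at edgeR adjusted p = 0.00454, 0.00263, 0.00454 and 0.00244. Hmgb2 stood at 352 CPM in members of CLL replicate 1 and 1116 and 1405 CPM in those of SHAM replicates 1 and 2, beside 1209, 590 and 1166 CPM in their T cells. In CLL replicate 1, 1 barcode held 77.1% of the members' Ftl1 UMIs. In simulated counts of this design, 12 of the 95 tested genes changed 4 units were called and 1 of the 83 changed 2 units. Those counts were drawn around a shared profile for each cell class, with a common spread for all genes and no heavy barcodes. They cannot show how often unchanged genes are called in the real libraries. With all 5 libraries that held T cells, 1 of 2776 genes passed (0.036% called), and it was Gzma. There Ccl5 and S100a4 turned to 0.53 and 0.82, and Hmgb2 and Ftl1 kept their sign at -1.77 and 1.27.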

How the data were processed

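Single-cell RNA was measured in 6 libraries of digested quadriceps, made with the 10x Chromium 3′ kit per the labels' protocols. The deposited unit is the UMI count per gene and barcode, per the file headers from Cell Ranger 6.1.2, with build mm10 named in the submitters' processing notes. How barcodes were selected for deposit is not stated. Libraries held 23873416 to 94841003 UMIs, and members 567 to 41356 each.

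The rule was applied to raw counts. Library pairs shared 2 to 74 kept barcodes, no member barcode was shared, and 3 members' barcodes were also kept barcodes of another library. Doublets stayed in, and Scrublet (scanpy 1.11.5) served as an alternative. Counts were summed per library over members and tested with edgeR 4.0.16 (quasi-likelihood, TMM, filterByExpr, Benjamini-Hochberg at 0.05). DESeq2 1.42.0 was an alternative. Shares were tested with exact permutation (scipy 1.17.1). The fits were tested on simulated data, drawn around a shared profile for each cell class, with a common spread for all genes and no heavy barcodes.

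The members and lists were chosen with earlier results of these data known. Genes named were the rule markers, a fixed set, up to 4 of each NK or state list by p, the 5 smallest p per direction, and the 5 smallest p of the interaction outside the gate genes. Alternatives covered marker number, quality limits, doublets, scaling, filters, tool, left-out libraries and left-out barcodes.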

Additional observations from a re-analysis of the deposited data

Results flagged for a closer look

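In CLL replicate 1 against SHAM replicates 1 and 2, the interaction test separated the estimated change in members from that in T cells for the 5 genes with the smallest p once the genes of either gate, Gzma among them, were left out. The CLL side is 1 library and is assumed to vary like the SHAM ones, so these values describe that library. On the log2 scale the change in members minus that in T cells was 1.67 for Ftl1, -2.39 for Hmgb2, 1.40 for Col3a1, -1.80 for S100a4 and -1.38 for Ccl5. With the 5 libraries that held T cells, none of these 5 passed in edgeR, the estimates being 1.27, -1.77, 0.29, 0.82 and 0.53, with a changed sign for S100a4 and Ccl5. Col3a1 is a collagen gene of fibroblasts. In CLL replicate 1, 1 member barcode held 77.1% of the Ftl1, 78.5% of the Col3a1 and 70.4% of the Ccl5 UMIs. Groups of 3 libraries were too small for a search for single libraries that stand apart.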

How the results depend on the processing

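The difference in member share kept its sign under the alternatives run, from -0.599 to -0.128 percentage points when 1 library was left out and, at 1000 UMIs, from -0.694 to -0.178. It shrank to -0.0642 when members with a UMI of Trac, Trbc1, Trbc2, S100a8 or S100a9 were left out (exact permutation p = 1.0). That setting left 2, 1 and 2 members in CLL and 70, 0 and 0 in SHAM. All 18 members of SHAM replicate 2 had held a UMI of Trbc1 or Trbc2. Members per T cell ranged from -1.07 to 0.0540, and the sign changed only without SHAM replicate 1. Genes changed in members numbered 0, but 17 (8 higher, 9 lower) with every gene that had a count in at least 2 libraries, and 2 (Ecrg4, Tbc1d4) without the highest Scrublet scores. Leave-one-out fits of all 6 libraries called 0 each, with 9 to 100 genes at an unadjusted p under 0.05. The interaction count of 18 became 48 with DESeq2 size factors, 1 with 5 libraries, and 0 to 2 when 1 of those was left out. The cause was not tested.

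Estimates of 5 genes reversed sign, and 0 of them passed: Il2rb 0.00511 without barcodes rich in MHC class II and 0.0605 among barcodes of at most 20000 UMIs, where Eomes was 0.0373, Irf7 0.10 without the class II barcodes, Zeb2 0.10 with all 6 libraries and 0.0812 with the replicate block, and Cish -0.0562 without the highest Scrublet scores. Correlations of the deviations of same-numbered libraries were -0.039, 0.023 and 0.132, and 1 of 3 CLL libraries correlated best with its own number. With as few as 1 and 4 members in a library, this check cannot exclude a pairing. The replicate block on all 6 libraries called 0 genes. Leaving out a library or adding a block could not be fitted with 3 libraries, nor could 20 members per library or members without Trac, Trbc1, Trbc2, S100a8 and S100a9. Fits of all 6 or of 5 libraries, and those without class II or large barcodes, were chosen after seeing the data.

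Only 13, 4 and 6 members came from the CLL libraries, and 1 from SHAM replicate 3, which limits every comparison between the groups.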
